A study of Gallus gallus with 6 samples.

Results

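The genes for the adaptors and kinases that act directly behind Toll-like, interleukin-1 and tumor necrosis factor receptors were compared between lens explants at 1 h after wounding and at the time of wounding (time 0). They were chosen by name, as MYD88, IRAK2, IRAK4, TRAF2, TRAF3, TRAF6, TAB2, MAP3K7, RIPK1 and RIPK2, and all 10 were found among the 17262 genes of the deposited table. All 10 also had enough reads for the test, which was run on 12391 genes. The messenger RNAs for MYD88, TRAF6, TRAF3, RIPK2 and TAB2 were significantly higher at 1 h, by between 1.43-fold and 3.19-fold. The messenger RNAs for IRAK2, IRAK4, TRAF2, MAP3K7 and RIPK1 did not pass the test in either direction.

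MYD88 is the adaptor that Toll-like receptors and the interleukin-1 receptor recruit once they bind a ligand. It gathers IRAK kinases, which engage TRAF6, a ubiquitin ligase whose chains are read by TAB2 and bring in the kinase TAK1, the product of MAP3K7. TAK1 then activates the IKK complex and the MAP kinases. Tumor necrosis factor receptors reach the same kinase through TRAF2 and RIPK1, and the bacterial sensor NOD1 does so through RIPK2. TRAF3 takes part in interferon induction and restrains the kinase NIK. These roles are known from human and mouse cells and are given as background for the chick genes.

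The study asked which transcripts change between the moment of a cataract surgery wound and 1 h afterwards. Whole lenses came from chick embryos at embryonic day 14, the fiber cell mass was removed, and the capsule with its equatorial epithelium and resident immune cells was kept as an explant. In the 1 h group (3 libraries) the explants were further cut through the equatorial epithelium, laid flat on a culture dish and kept for 1 h in serum-containing medium, and in the time 0 group (3 libraries) they were collected directly after wounding. Time after wounding, the added cuts and flattening, and culture therefore cannot be told apart. The sample labels carry the same culture text for both times. Each library was made from 6 pooled explants, and no unwounded group was analysed here.

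Libraries held between 13733581 and 17673955 counts, and a floor of 3 counts equalled 0.175 to 0.221 CPM, depending on the library, CPM being the count scaled to a common library size. The 10 genes together took between 0.0327% and 0.0355% of the counts at 1 h, against between 0.0261% and 0.0282% at time 0. Levels are given as CPM after TMM scaling, a between-library normalization, with means ± SD over 3 libraries. A gene was called where the quasi-likelihood test of edgeR gave a Benjamini-Hochberg adjusted p, over all genes tested, of under 0.05. Because whole explants were sequenced, a change in the number of cells of a type and a change in RNA per cell cannot be told apart.

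Of the 10 genes, 5 were called higher at 1 h, where 19.8% of all genes tested were. None was called lower by edgeR, where 12.0% of all genes were, and none was lower at an unadjusted p under 0.05 (0 of 10) or in DESeq2's Wald test (0 of 10). The split of calls over all genes, 2450 higher and 1488 lower, depended on the scaling, being 2201 higher and 2016 lower with library totals and 1901 higher and 3400 lower with upper-quartile normalization, where IRAK2 and RIPK1 were called lower. In 4 of the 5 the increase was at least 2-fold, a size that 6.46% of all genes tested reached together with the call. Every 1 h library lay above every time 0 library in these 5 genes and in none of the other 5, and over all genes tested this separation was found in 25.4%. The median log2 fold change was 0.42 over the 10 genes and -0.01 over all genes tested. These 10 genes were chosen with earlier results of these data known, so the shares describe the set and do not test it. The same 5 genes were called higher under each of the 14 alternatives run, which included leaving out each library in turn.

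**Figure D1:**
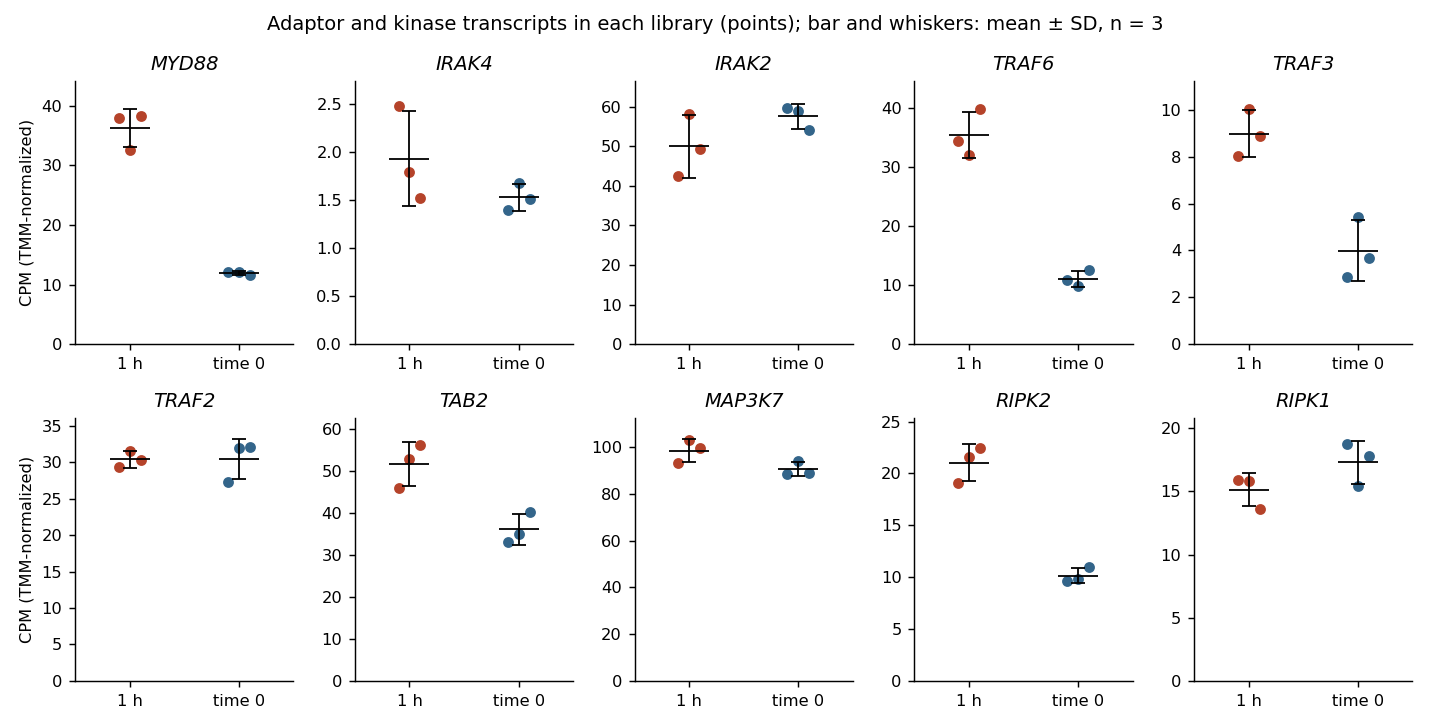
Normalized level of each gene (vertical axis, CPM after TMM scaling, from 0) in the 1 h libraries (red points) and the time 0 libraries (blue points), with the mean and SD of 3 libraries as a bar with whiskers. The points of the 2 times lie apart for MYD88, TRAF6, TRAF3, TAB2 and RIPK2, and overlap for IRAK4, IRAK2, TRAF2, MAP3K7 and RIPK1.

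At the top of the cascade, MYD88 (ENSGALG00000005947, chromosome 2 from 4892458 to 4905115 in the authors' table, for which no genome build is given in the sources used here) had 582, 510 and 655 counts in 1 h replicates 1, 2 and 3, against 165, 187 and 177 counts in time 0 replicates 1, 2 and 3. All 1 h libraries were high and alike, and the lowest of them was 2.68 times the highest time 0 library after scaling. The level was 36.3 ± 3.22 CPM at 1 h and 12.0 ± 0.308 CPM at time 0 (SD, n = 3 libraries each). This is a 3.03-fold increase (log2 fold change 1.60 ± 0.10 SE, edgeR adjusted p = 2.84e-07). MYD88 ranked 173 by p-value among the genes higher at 1 h, the first of the 10, and its log2 fold change stayed between 1.47 and 1.66 over the alternatives.

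Neither of the IRAK kinases beside MYD88 passed the test. IRAK4 (ENSGALG00000009586, chromosome 1 from 30191199 to 30202651), the kinase that binds MYD88 first, had 38, 28 and 26 counts at 1 h, against 19, 26 and 23 counts at time 0. It was the least counted gene of the set, and its libraries overlapped between the times. The log2 fold change was 0.33 ± 0.31 (SE, edgeR adjusted p = 0.452), with a 95% interval of 0.784-fold to 2.00-fold. Changes within this interval are not excluded.

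IRAK2 (ENSGALG00000008407, chromosome 12 from 19833087 to 19846617), a later partner that sustains the signal, was counted far more often, with 649, 912 and 843 counts at 1 h, against 809, 911 and 824 counts at time 0. After scaling, 1 h replicate 1 was the lowest library at 42.4 CPM and 1 h replicate 2, at 58.2 CPM, lay among the time 0 libraries, which held between 54.0 and 59.7 CPM. The mean was 49.9 ± 7.96 CPM at 1 h and 57.5 ± 3.07 CPM at time 0 (SD, n = 3 libraries each), with a log2 fold change of -0.20 ± 0.11 (SE, edgeR adjusted p = 0.173). The 95% interval ran from 0.738-fold to 1.02-fold. Without 1 h replicate 2 the log2 fold change was -0.34 and IRAK2 was called lower (adjusted p = 0.0264), and over all alternatives the adjusted p lay between 0.0244 and 0.387.

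Among the TRAF genes, TRAF6 (ENSGALG00000007932, chromosome 5 from 19717642 to 19735423), the ubiquitin ligase downstream of MYD88, had 528, 504 and 682 counts at 1 h, against 148, 153 and 192 counts at time 0. The lowest 1 h library was 2.56 times the highest time 0 library after scaling. With 35.5 ± 3.94 CPM at 1 h and 11.1 ± 1.36 CPM at time 0 (SD, n = 3 libraries each), TRAF6 had the largest fold change of the 10 genes, 3.19-fold (log2 fold change 1.67 ± 0.12 SE, edgeR adjusted p = 8.50e-07). The 95% intervals of TRAF6, 2.65-fold to 3.85-fold, and MYD88, 2.59-fold to 3.56-fold, overlapped.

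TRAF3 (ENSGALG00000011389, chromosome 5 from 50027923 to 50071113) was less abundant, with 123, 157 and 152 counts at 1 h, against 39, 84 and 56 counts at time 0. Its time 0 libraries were the most scattered of the called genes, time 0 replicate 2 being the highest, but each remained below each 1 h library. The level was 8.98 ± 1.00 CPM at 1 h and 3.99 ± 1.31 CPM at time 0 (SD, n = 3 libraries each), a 2.24-fold increase (log2 fold change 1.16 ± 0.22 SE, edgeR adjusted p = 0.00200). Leaving out each library in turn gave log2 fold changes between 0.98 and 1.45, the highest without time 0 replicate 2.

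TRAF2 (ENSGALG00000042838, chromosome 17 from 895590 to 912182), which serves tumor necrosis factor receptors, had 449, 495 and 520 counts at 1 h, against 371, 494 and 490 counts at time 0. The levels were 30.4 ± 1.15 CPM at 1 h and 30.5 ± 2.70 CPM at time 0 (SD, n = 3 libraries each). The libraries of the 2 times overlapped, and the 95% interval of the change was 0.867-fold to 1.15-fold (adjusted p = 0.984). The interval lay below that of TRAF3, which began at 1.59-fold, and that of TRAF6.

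The proportions of the 3 TRAF genes are given as a description, with no test. Other TRAF genes are not in the sum, among them TRAF4, at 44.5 CPM per kb at 1 h and 43.7 at time 0. TRAF2 itself had 13.6 CPM per kb at both times, so its share moved with TRAF3 and TRAF6. Per kilobase of gene length, TRAF2 made up 42.5%, 44.4% and 40.0% of the summed TRAF2, TRAF3 and TRAF6 level in 1 h replicates 1, 2 and 3, against 67.9%, 68.7% and 67.8% in the time 0 replicates. The share of TRAF6 was 45.9%, 41.6% and 48.3% at 1 h, against 24.9%, 19.6% and 24.5% at time 0. TRAF3 stayed the smallest part in each library, with between 11.6% and 14.1% at 1 h, against between 7.13% and 11.7% at time 0.

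The complex that TRAF6 engages was represented by TAB2, which reads ubiquitin chains, and MAP3K7, which encodes the kinase TAK1. TAB2 (ENSGALG00000012356, chromosome 3 from 48169255 to 48188056) had 704, 829 and 962 counts at 1 h, against 448, 544 and 614 counts at time 0. The times did not overlap after scaling, although the gap was the narrowest of the 5 called genes, the lowest 1 h library being 1.14 times the highest time 0 library. TAB2 averaged 51.7 ± 5.24 CPM at 1 h and 36.2 ± 3.70 CPM at time 0 (SD, n = 3 libraries each), a 1.43-fold increase (log2 fold change 0.52 ± 0.10 SE, edgeR adjusted p = 0.00225). Its adjusted p remained under 0.05 over the alternatives, the highest being 0.0152.

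MAP3K7 (ENSGALG00000015596, chromosome 3 from 75083923 to 75132422) was the most abundant of the 10 genes, with 1426, 1610 and 1703 counts at 1 h, against 1201, 1453 and 1357 counts at time 0. The level was 98.5 ± 4.94 CPM at 1 h and 90.5 ± 3.02 CPM at time 0 (SD, n = 3 libraries each). The lowest 1 h library, at 93.1 CPM, was just under the highest time 0 library, at 94.0 CPM. The log2 fold change of 0.12 ± 0.07 (SE, edgeR adjusted p = 0.211) had a 95% interval of 0.978-fold to 1.21-fold, and its sign turned with upper-quartile normalization.

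Of the RIPK genes, RIPK2 was called higher and RIPK1 was not called. RIPK2 (ENSGALG00000043535, chromosome 2 from 124171738 to 124191159), the kinase behind NOD receptors, had 292, 338 and 385 counts at 1 h, against 131, 152 and 167 counts at time 0. Each 1 h library was high, and the lowest was 1.74 times the highest time 0 library after scaling. The level was 21.0 ± 1.78 CPM at 1 h and 10.1 ± 0.698 CPM at time 0 (SD, n = 3 libraries each), a 2.07-fold increase (log2 fold change 1.05 ± 0.12 SE, edgeR adjusted p = 3.65e-05).

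RIPK1 (ENSGALG00000012827, chromosome 2 from 66321163 to 66341383), which acts in tumor necrosis factor signaling and in cell death, had 244, 248 and 233 counts at 1 h, against 254, 238 and 271 counts at time 0. Its level was 15.1 ± 1.31 CPM at 1 h and 17.3 ± 1.72 CPM at time 0 (SD, n = 3 libraries each), and the libraries of the times overlapped. The log2 fold change was -0.19 ± 0.12 (SE, edgeR adjusted p = 0.253), with a 95% interval of 0.727-fold to 1.05-fold. The intervals of the 2 RIPK genes lay apart, that of RIPK2 running from 1.73-fold to 2.49-fold.

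**Figure D2:**
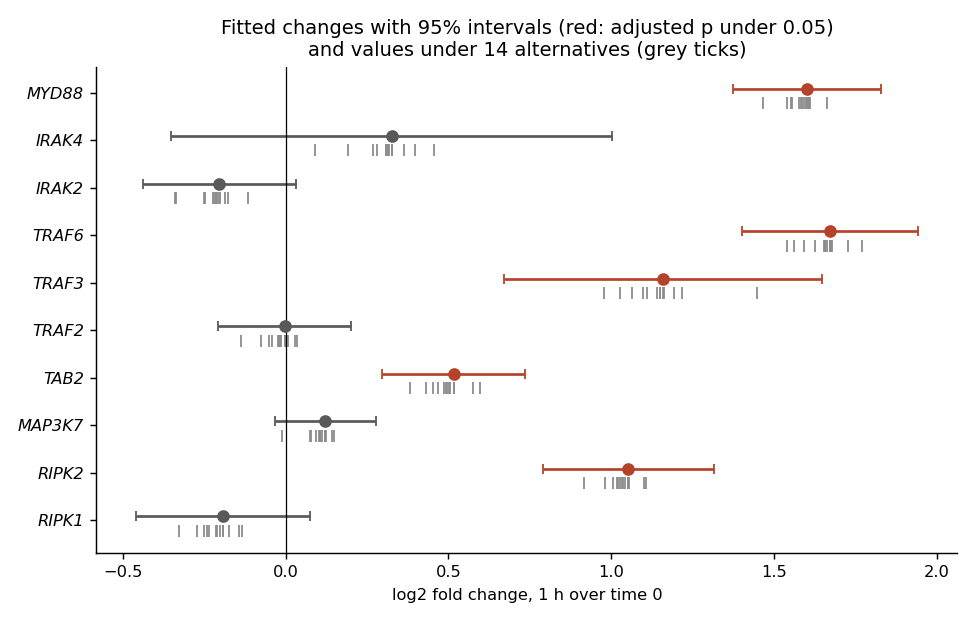
Log2 fold change at 1 h over time 0 (horizontal axis) of each gene with its 95% interval from the edgeR fit, in red where the adjusted p was under 0.05, and the values under 14 alternatives as grey ticks. The 5 red intervals lie to the right of 0, from TAB2 at 0.52 to TRAF6 at 1.67, and the 5 grey intervals cross 0.

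Ratios of partner genes within a library do not depend on the scaling between libraries, and 5 were compared. With 3 libraries against 3 the two-sided exact permutation test cannot go below p = 0.10, and no ratio could pass the threshold. RIPK2 had 1.20, 1.36 and 1.65 counts for each RIPK1 count at 1 h, against 0.516, 0.639 and 0.616 at time 0 (exact p = 0.10, 0.125 adjusted over the 5 ratios). RIPK2 was thus the more counted of the pair in every 1 h library and the less counted in every time 0 library. TRAF2 had 0.850, 0.982 and 0.763 counts for each TRAF6 count at 1 h, against 2.51, 3.23 and 2.55 at time 0 (exact p = 0.10, 0.125 adjusted), so that this pair also changed its order in counts. These orders are of raw counts, without a correction for length. Per kilobase, RIPK2 still lay below RIPK1 in 1 h replicate 1 (5.12 against 5.69 CPM per kb). Likewise, TRAF2 still lay above TRAF6 in 1 h replicate 2 (14.1 against 13.2 CPM per kb).

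TAB2 had 0.494, 0.515 and 0.565 counts for each MAP3K7 count at 1 h, against 0.373, 0.374 and 0.453 at time 0, again without overlap (exact p = 0.10, 0.125 adjusted). TRAF3 against TRAF6 overlapped, with 0.233, 0.312 and 0.223 at 1 h and 0.264, 0.549 and 0.292 at time 0 (exact p = 0.30). The ratio of IRAK2 to IRAK4 was 17.1, 32.6 and 32.4 at 1 h, against 42.6, 35.0 and 35.8 at time 0 (exact p = 0.10, 0.125 adjusted). Here 1 h replicate 1 stood apart, and without it the log2 difference shrank to -0.21, compared with -0.52 over all libraries.

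**Figure D3:**
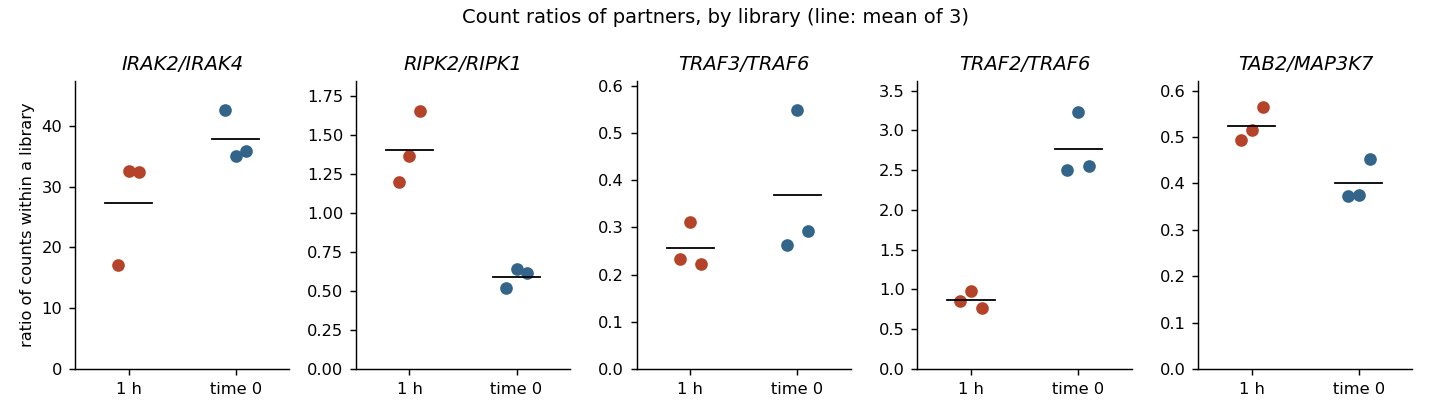
Ratio of the raw counts of 2 partner genes within each library (vertical axis, from 0) in the 1 h libraries (red points) and the time 0 libraries (blue points), with the mean of 3 libraries as a line. RIPK2/RIPK1 and TAB2/MAP3K7 lie higher at 1 h, TRAF2/TRAF6 and IRAK2/IRAK4 lie lower, and TRAF3/TRAF6 overlaps.

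Levels of different genes were compared per kilobase of the gene length listed in the authors' table. At 1 h the order was MAP3K7 (33.6 ± 1.69 CPM per kb), TAB2 (23.7 ± 2.40), TRAF6 (14.6 ± 1.62), IRAK2 (13.8 ± 2.19), TRAF2 (13.6 ± 0.513), MYD88 (8.29 ± 0.735), RIPK2 (5.65 ± 0.477), RIPK1 (5.41 ± 0.469), TRAF3 (3.999 ± 0.446) and IRAK4 (0.744 ± 0.191). Neighbours whose libraries overlapped were TRAF6 and IRAK2, IRAK2 and TRAF2, and RIPK2 and RIPK1.

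At time 0 the order was MAP3K7 (30.9 ± 1.03 CPM per kb), TAB2 (16.6 ± 1.70), IRAK2 (15.9 ± 0.847), TRAF2 (13.6 ± 1.20), RIPK1 (6.18 ± 0.614), TRAF6 (4.57 ± 0.557), MYD88 (2.73 ± 0.0704), RIPK2 (2.72 ± 0.187), TRAF3 (1.78 ± 0.583) and IRAK4 (0.590 ± 0.0546). TAB2 and IRAK2 overlapped, as did MYD88 and RIPK2. TRAF6 thus held position 3 at 1 h and position 6 at time 0, while MAP3K7 and TAB2 held the first positions and TRAF3 and IRAK4 the last at both times. Against all genes tested, the mean level of the 10 genes over the 6 libraries ran from the 10.5 percentile for IRAK4 to the 87.1 percentile for MAP3K7, with MYD88 at 50.1 and TRAF6 at 48.8. These percentiles are of log2 CPM, without a correction for length.

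To place the 10 genes in their pathway, 130 other genes were listed by role. Of these, 100 were found by symbol and 76 had enough reads, of which 33 were called higher at 1 h and 9 lower, with a median log2 fold change of 0.22. The 9 lower calls became 4 without time 0 replicate 3 and 14 with upper-quartile normalization. The corresponding shares over all genes tested are the 19.8% and 12.0% given above, and their median was -0.01. The lists were also chosen with earlier results of these data known, and no set was tested.

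Many of the ligands and receptors found at the head of the pathway were scarce. Only 4 of the 7 ligands found and 10 of the 25 receptors found had enough reads. The lists held 15 ligands and 32 receptors, and those not found had no match by symbol. Of the 17262 genes, 5219 carried no symbol, so a gene not found here is not shown to be absent. IL18, which the paper reports as upregulated, was not found. The interleukin-1 receptor gene IL1R1 had 1, 2 and 1 counts at 1 h, against 7, 0 and 2 counts at time 0, and TLR4, the receptor for bacterial lipopolysaccharide, had 15, 9 and 10 counts at 1 h, against 1, 1 and 0 counts at time 0. IL1R2, which the paper describes as a decoy receptor for interleukin-1, was among the receptors called higher (edgeR adjusted p = 8.05e-05). It had 82, 53 and 36 counts at 1 h, against 0 counts in every time 0 library. None of the 6 Toll-like receptor genes found had enough reads for the test. The interleukin-1 gene IL1B, with 54, 19 and 35 counts at 1 h, against 2, 0 and 2 counts at time 0, was called higher (edgeR adjusted p = 0.000378), and no fold is given since its time 0 libraries held at most 2 counts.

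Of the 10 receptors tested, 5 were called higher and none lower. In DESeq2's Wald test 6 were higher and 0 lower. The higher count was 4 with library totals or upper-quartile normalization, each of which called 1 receptor lower, and 7 without a filter. At an unadjusted p under 0.05, 1 was lower, NOD1 (log2 fold change -0.24, edgeR adjusted p = 0.0612). IL1RAP, a receptor that the paper lists as induced, was not called (log2 fold change 0.58, edgeR adjusted p = 0.0564). Its libraries did not overlap between the times. The median log2 fold change of the 10 receptors was 0.59. TNFRSF1A, the main tumor necrosis factor receptor, had a log2 fold change of 2.09 (SE 0.16), the death receptor TNFRSF10B 2.24 and TNFRSF21 1.68 (adjusted p = 1.78e-05, 1.38e-05 and 0.000649). The sum over the receptors found was between 250.8 and 330.7 CPM at 1 h, against between 137.0 and 146.4 CPM at time 0. Most of this difference lay in TNFRSF1A (mean 108.1 CPM at 1 h and 25.3 at time 0) and TNFRSF21 (60.2 and 18.7). The mean of NOD1 was 28.6 CPM at 1 h and 33.7 at time 0. Among the 4 ligands tested, 2 were called higher and 2 lower. The lower ligands were TNFSF10, the ligand of death receptors, with a log2 fold change of -0.87 (adjusted p = 0.0388), and HMGB1, a nuclear protein that signals damage when released, with -0.24 (adjusted p = 0.0148). TNFSF10 lost its call without a filter and without 1 h replicate 2, time 0 replicate 1 or time 0 replicate 3 (adjusted p between 0.0950 and 0.115), and HMGB1 without time 0 replicate 3 (0.0560).

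Of 19 further adaptors, TRAF, TAB and related genes tested, 4 were called higher, 5 lower and 10 neither, with a median log2 fold change of 0.04. The count of higher genes is near the 19.8% of all genes tested and is no result about these relatives. The 5 lower genes of 19 are a larger share than the 12.0% of all genes tested, and this difference was not tested. In DESeq2's Wald test 4 were lower. Higher were BCL10, the adaptor of CARD proteins (log2 fold change 1.15, adjusted p = 1.38e-05), TRAFD1, an inhibitor of the pathway (0.96, adjusted p = 0.000292), TRAF7 (0.49, adjusted p = 0.00237) and TAB3 (0.42, adjusted p = 0.00339), the close relative of TAB2. The lower genes were led by MAVS, the adaptor of RNA sensors (-0.90, adjusted p = 0.000720), and TICAM1, the MYD88-independent adaptor of TLR3 (-0.84, adjusted p = 0.00142), followed by TANK, TAB1 and TRAF3IP1.

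TICAM1 had 118, 134 and 167 counts at 1 h, against 232, 197 and 256 counts at time 0, and so lay lower in every 1 h library, whereas MYD88 lay higher in every one. The subunit TAB1 of the TAK1 complex fell by 0.55 on the log2 scale (adjusted p = 0.00459), while TAB2 and TAB3 rose. TRAF4, with 62.9 ± 2.43 CPM at 1 h and 61.7 ± 5.12 CPM at time 0 (SD, n = 3 libraries each), and the MYD88 bridging adaptor TIRAP, with 12.4 ± 1.83 CPM at 1 h and 12.0 ± 2.06 CPM at time 0, were not called.

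Among the ubiquitin enzymes and readers, the downstream kinases and the inhibitors of the pathway, more genes were called higher than lower. The same held over all genes tested, with 19.8% higher and 12.0% lower, shares to be read beside each count below. With upper-quartile normalization the order over all genes turned, to 1901 higher and 3400 lower. No list was tested as a set. Of 10 ubiquitin ligases, conjugating enzymes and readers tested, 5 were called higher and none lower, and their median log2 fold change was 0.17. The higher count was 4 in DESeq2's Wald test, with library totals or upper-quartile normalization, and in each fit that omits a library. The lower count was 0 also in DESeq2's Wald test and at an unadjusted p under 0.05, but 2 with upper-quartile normalization. BIRC2, which encodes the ligase that TRAF2 recruits, rose by 2.82 on the log2 scale (SE 0.14, edgeR adjusted p = 2.28e-07), with 422.0 ± 86.7 CPM at 1 h and 59.7 ± 1.95 CPM at time 0 (SD, n = 3 libraries each). PELI2, a ligase that binds IRAK proteins, rose by 1.85 (adjusted p = 4.16e-05) and SQSTM1, a ubiquitin reader that binds TRAF6, by 1.56 (adjusted p = 0.000199). The conjugating enzyme UBE2N, which works with TRAF6, had 127.0 ± 2.42 CPM at 1 h and 137.4 ± 4.20 CPM at time 0 and was not called (adjusted p = 0.211).

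Of 18 IKK and MAP kinase genes tested, 9 were called higher and 1 lower, with a median log2 fold change of 0.28. MAP3K14, the kinase NIK that TRAF3 restrains, rose by 2.87 ± 0.10 (SE, edgeR adjusted p = 1.20e-09), MAP2K3 by 1.66 (adjusted p = 1.73e-07) and MAP3K1 by 1.05 (adjusted p = 8.47e-07). TBK1, an interferon-inducing kinase, was the lower gene (log2 fold change -0.36, adjusted p = 0.0169), and lost its call without time 0 replicate 2 (0.0529) or time 0 replicate 3 (0.0510). The IKK genes CHUK and IKBKB, the next kinases after TAK1, had log2 fold changes of 0.04 and -0.05 and were not called.

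Of 15 inhibitors tested, 8 were called higher and 1 lower, with a median log2 fold change of 0.28. TNIP2 rose by 3.07 ± 0.19 (SE, edgeR adjusted p = 2.08e-07) and TNFAIP3, which encodes the deubiquitinase A20 that acts on TRAF6 and RIPK1, by 3.03 (SE 0.19, edgeR adjusted p = 3.00e-07). TAX1BP1, a partner of A20, rose by 0.93 (adjusted p = 7.21e-06). CASP8, the caspase that cleaves RIPK1, was the lower gene (log2 fold change -0.47, adjusted p = 0.0210), and lost its call without 1 h replicate 3 (0.0577) or time 0 replicate 3 (0.0957).

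**Figure D4:**
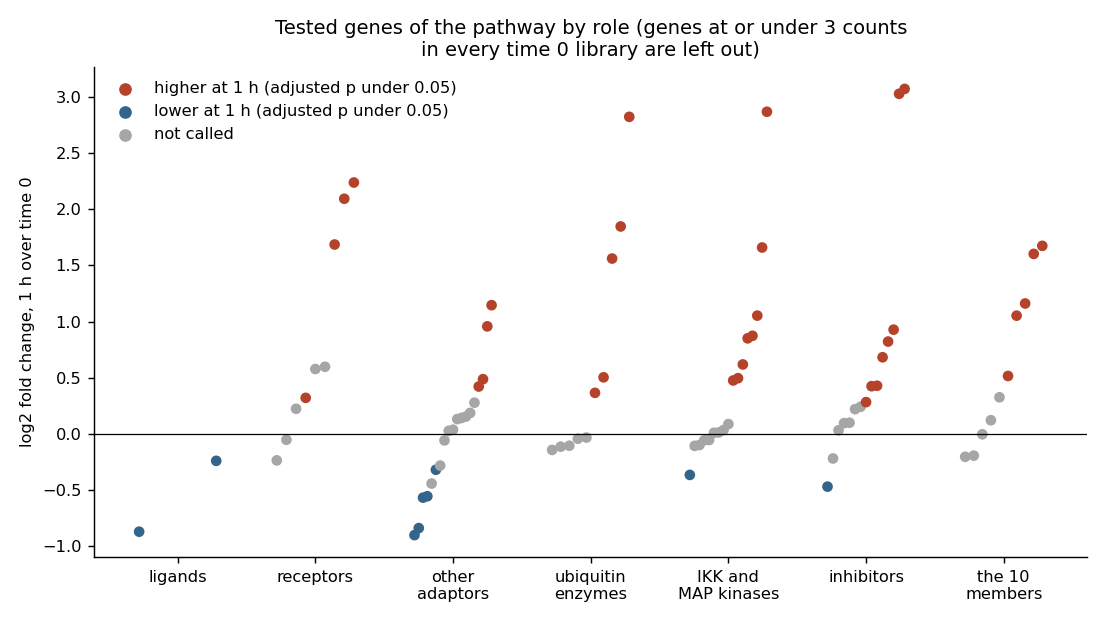
Log2 fold change at 1 h over time 0 (vertical axis) of the tested genes of each role and of the 10 genes described here, each point being 1 gene, red where called higher, blue where called lower and grey where not called, with genes at or under 3 counts in every time 0 library left out. The 10 genes span -0.20 to 1.67, the further adaptors -0.90 to 1.15, and the largest increases drawn are those of inhibitors, kinases and ubiquitin enzymes, up to 3.07.

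The labelled tissue was checked with marker genes. Of 10 lens fiber markers, 9 were found and 8 of these were called lower at 1 h, with summed levels between 4901 and 5092 CPM at 1 h, against between 7385 and 8947 CPM at time 0. Of 8 lens epithelium markers, 7 were found, 4 being called higher and 2 lower, with sums between 18758 and 19788 CPM at 1 h, against between 23209 and 24413 CPM at time 0. This sum is mostly the crystallin gene CRYAB, with 14735 CPM at 1 h and 19560 CPM at time 0, and GJA1 was the other lower gene, while PAX6, SIX3, PROX1 and SOX2 were higher. Of 15 resident immune cell markers, 11 were found, none at 0 in all 6 libraries, and 5 had enough reads. Their sum was between 8.53 and 9.60 CPM at 1 h, against between 3.93 and 7.37 CPM at time 0, and CD83 alone was called higher. CD83, which the paper links to activated antigen presenting cells, is part of this sum. Its mean was 2.54 CPM at 1 h and 0.0246 CPM at time 0. CD86 had 5, 2 and 4 counts at 1 h, against 0 counts in all time 0 libraries, too few for the test. The leukocyte gene PTPRC had 35, 16 and 18 counts at 1 h, against 12, 20 and 8 counts at time 0 (log2 fold change 0.67, adjusted p = 0.282), and the macrophage gene CSF1R had a log2 fold change of -0.84 (adjusted p = 0.188). CD80 (0.94, adjusted p = 0.112) and LAPTM5 (-0.87, adjusted p = 0.127) were not called either, so that 4 of the 5 immune markers tested did not pass, with fold changes of both signs. The fiber markers fell where the 5 called genes rose, and their part in the result was not tested.

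Of 11 blood cell markers, 4 were found and 2 had enough reads, neither being called. HBA1, a hemoglobin gene, had 309 counts in 1 h replicate 1, against 0 and 3 in the other 1 h libraries and between 29 and 44 at time 0. ALAS2, the other blood marker tested, was lowest in 1 h replicate 1 among the 1 h libraries. It had 389, 461 and 498 counts at 1 h, against 371, 389 and 411 counts at time 0. In 1 h replicate 1 IRAK2 was lowest and IRAK4 highest among the 1 h libraries, and without this library their log2 fold changes were -0.12 and 0.09. A link of these values to the blood markers was not tested. The sum of 6 pigmented epithelium markers was between 2.28 and 5.84 CPM at 1 h, against between 5.46 and 6.75 CPM at time 0.

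Over the 6 libraries, the genes whose log2 CPM followed MYD88 most closely were HIGD1A, PRELID3A, ITPKB, NFKB2 and MIDN, each with a Pearson r of at least 0.999 among 9062 genes compared. This is a description over points that share the split into 2 times of 3 libraries, and 243 genes reached 0.99. TRAF6 was at place 306 (r = 0.988), RIPK2 at 563 (r = 0.975), TRAF3 at 1500 (r = 0.892) and TAB2 at 1529 (r = 0.889).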

How the data were processed

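Poly(A) RNA of 6 libraries was sequenced by Novogene as paired reads of 150 bp. The authors deposited 1 table of raw read counts per gene; the submitters' processing notes name HISAT2 2.0.5, StringTie 1.3.3b, featureCounts 1.5.0-p3 and DESeq2 1.20.0 without roles, and the genome build and the use of strand are not given in the sources used here. No gene in the table overlaps any of the 10. Gene lengths are the deposited values. The authors' normalized values, fold changes and p-values were not used.

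Counts were filtered with filterByExpr (12391 of 17262 genes), scaled by TMM and tested with edgeR 4.0.16 (glmQLFit, robust, and glmQLFTest) in R 4.3.3, with Benjamini-Hochberg adjustment at 0.05. Standard errors were derived from the F statistic. Log2 CPM for the likeness measure used a prior count of 2. The floor was 3 counts per library and covers counting error only. The 95% intervals of the fold changes come from the edgeR fit and include variation between libraries. Chi-square divided by its degrees of freedom was 7.96 to 15.1 for libraries of the same time, more than counting error alone gives. The highest values, 15.1 and 14.3, were of the pairs with 1 h replicate 1. This measure shows whether libraries are copies of each other and cannot show an outlying one. All 6 libraries were kept. The labels call them biological replicates. DESeq2 1.42.0, other scalings and filters, a non-robust fit, a replicate block and leaving out each library were the alternatives. In simulated counts for 1 h against time 0 with 12280 genes tested, edgeR recovered 176 of 198 changed genes, with 7 false calls. Of the 100 changed 2-fold, 81 were recovered. In the data 3938 genes were called, and recovery and false calls with that many changes were not tested.

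The 10 genes, the role lists and the markers were chosen with earlier results of these data known. Beside the 10, the rule named from each list up to 3 called genes with the largest increase and up to 2 with the largest decrease with a mean log2 CPM not under 1, and the 5 genes most like the member of lowest adjusted p. IL1R1, IL1R2, IL1RAP, NOD1, TLR4, IL1B, TAB1, TAB3, TANK, TRAF3IP1, TRAF4, TIRAP, UBE2N, CHUK and IKBKB were named after their values were seen. The marker genes named singly were also outside this rule, as markers were planned only as counts and summed levels. Promoter and protein sequences were not analysed here.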

Additional observations from a re-analysis of the deposited data

How the results depend on the processing

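The count of 5 genes called higher, and which genes these were, did not move under any of the 14 alternatives. No gene of the 10 was called lower, except 2 with upper-quartile normalization (IRAK2, log2 fold change -0.34, adjusted p = 0.0244, and RIPK1, -0.33, adjusted p = 0.0482) and 1 without 1 h replicate 2 (IRAK2), the count lying between 0 and 1 over the fits that each omit 1 library. Upper-quartile normalization moved the median change over all genes to -0.14 (log2), and relative to that shift IRAK2 and RIPK1 were at about their values with TMM. It called 5301 genes, and the fits that each omit 1 library called 3078 to 3728, against 3938. It also turned MAP3K7 to -0.013. TRAF2 ranged from -0.076 to 0.034 over the fits that each omit 1 library, and was at 0.0060 without 1 h replicate 1, 0.030 without time 0 replicate 2 and 0.034 without time 0 replicate 3. Of the role lists, 14 genes were called lower with upper-quartile normalization and 4 without time 0 replicate 3, against 9. With the replicate number as a block, 3730 genes were called against 3938, and 5 of the 10 genes were higher and 0 lower. Libraries with the same number did not deviate together (correlations -0.0764, 0.00466 and -0.0407 for numbers 1, 2 and 3), so the numbers were not taken as pairs. Depth limits IRAK4 most, whose 19 to 38 counts per library left a 95% interval from -0.35 to 1.00 on the log2 scale.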
